A study of Homo sapiens with 6 samples.

Results

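Messenger RNA of 46 genes was examined in HT1080 cells with and without the receptor GPR56: 44 genes of nuclear receptors, the transcription factors that bind steroids, thyroid hormone, vitamins, sterols, fatty acids or heme, and the genes of the membrane-associated progesterone components PGRMC1 and PGRMC2. The 46 genes were taken by symbol from a table of 58735 genes, and all 46 were found. Each symbol matched 1 identifier.

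HT1080 is an established human fibrosarcoma cell line. The 6 libraries came from 3 wild-type (WT) samples and 3 knockout (KO) samples made with CRISPR-Cas9. The gene targeted was ADGRG1, which encodes GPR56, a cell-surface receptor of the adhesion class that signals through G proteins. The sample descriptions name DMSO, a solvent, in the 6 libraries alike, and no dose or time of it is given. The cells grew in medium with fetal bovine serum, which carries hormones, sterols and fatty acids, and no receptor ligand is named as a treatment. The design text speaks of knockout cell lines without saying how many there were, which library came from which, or where the guide cut. Nor is it stated that the 3 samples of each genotype were grown as separate cultures, so p-values measure only how far these samples spread, and that spread may be technical. RNA was read from bulk cells, where fewer cells expressing a gene and less RNA per cell cannot be told apart.

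Most nuclear receptors have a DNA-binding domain and a ligand-binding domain. Many act as heterodimers with a retinoid X receptor (RXR), steroid receptors act as homodimers after release from heat-shock chaperones, and ligand binding exchanges corepressors for coactivators. The REV-ERB receptors NR1D1 and NR1D2 are repressors of the circadian clock that compete with ROR receptors for the same DNA elements. PGRMC1 and PGRMC2 are small heme-binding membrane proteins of another family, linked to progesterone responses, to heme transport and to cytochrome P450 enzymes.

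The promoter sequences shown here belong to the 2 REV-ERB genes, whose RNA differed between the genotypes in opposite directions, and to NR1H3, which had the second largest ratio between the genotypes among the tested genes. They are RefSeq promoters on build GRCh38.p14, cut to the longest run that lies outside every annotated exon, and are written 5′ to 3′ on the gene's strand. Capitals mark 6-letter or 8-letter motifs that were searched on either strand: the E-box CACGTG bound by clock activators, the D-box TTANGTAA bound by DBP and its relatives, the nuclear receptor half-site AGGTCA, the ROR element core NTAGGTCA, which contains the half-site, and the GC box GGGCGG. The NR1D1 run is chr17:40100726-40100839 (minus strand, 250 to 137 bases before the start). The NR1D2 runs are chr3:23945036-23945259 for the first listed start and chr3:23945871-23946120 for the second listed start, on the plus strand. The NR1H3 run is chr11:47248134-47248299 (plus strand).
NR1D1: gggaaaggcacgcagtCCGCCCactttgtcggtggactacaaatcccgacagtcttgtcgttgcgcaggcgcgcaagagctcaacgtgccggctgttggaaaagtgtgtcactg
NR1D2, first start: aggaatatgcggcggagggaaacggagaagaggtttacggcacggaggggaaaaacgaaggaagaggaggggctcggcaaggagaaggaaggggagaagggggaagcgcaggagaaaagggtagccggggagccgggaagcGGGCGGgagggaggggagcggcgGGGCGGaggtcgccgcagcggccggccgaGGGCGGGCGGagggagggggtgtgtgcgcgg
NR1D2, second start: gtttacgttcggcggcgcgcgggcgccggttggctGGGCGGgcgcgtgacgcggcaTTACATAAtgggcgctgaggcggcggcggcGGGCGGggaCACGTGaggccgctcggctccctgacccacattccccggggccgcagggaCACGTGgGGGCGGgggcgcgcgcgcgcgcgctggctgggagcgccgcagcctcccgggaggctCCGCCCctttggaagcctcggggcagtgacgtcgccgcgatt
NR1H3: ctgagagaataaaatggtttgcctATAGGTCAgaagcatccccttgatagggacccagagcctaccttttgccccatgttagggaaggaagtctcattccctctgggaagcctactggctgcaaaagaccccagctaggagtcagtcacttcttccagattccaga

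The NR1D2 sequence before the second start holds E-boxes at 155 and 105 bases and a D-box at 194 bases before that start. Of 35116 promoter windows of 250 bases, longer than the printed NR1D1 and NR1H3 runs, 6.34% hold the E-box and 1.98% the D-box. The NR1H3 run holds the ROR element core ATAGGTCA at 142 bases before its start, which 1.6% of the windows hold, and the half-site inside it occurs in 12.1%. Of the motifs searched, the printed NR1D1 run holds a GC box alone. A GC box, with or without other motifs, occurs in 42.6% of windows. Over 96 windows of 42 of the genes examined, 6.25% held the E-box, 1.04% the D-box, 15.6% the half-site, 3.12% the ROR element core and 50% a GC box. Windows on chromosome 8, where HNF4G lies, were left out of these 96 but not of the 35116. A match is a description of letters, and no match says only that these letters are not in the window.

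The labels were first checked. ADGRG1 (chr16:57610652-57665580) was read at 6.61, 6.07 and 6.87 FPKM in WT and 2.68, 2.54 and 2.58 in KO, a level lower in each KO library than in any WT library (log2 difference −1.06, adjusted p = 6.24e-05). The KO mean was still 0.399 of the WT mean, and whether receptor protein was lost is not measured by these data. Whole reads recovered from the table numbered 16410352 to 16461752 in WT and 16955111 to 17276269 in KO. By the library sizes that the FPKM values imply, 1 read in a gene of 1 kb was worth 0.0581 to 0.0602 FPKM. Of 10 mesenchymal markers 9 had a mean of at least 1 FPKM, with a summed level of 761 to 776 FPKM in WT and 886 to 971 in KO. None of 8 epithelial markers and none of 8 hepatocyte markers reached it, with sums of at most 1.07 FPKM in any library. CDH1, GRHL2, ALB, APOA2 and FGB were listed at 0 in the 6 libraries. No library stood apart from its genotype, but the GC content of genes moved with the libraries: the Spearman correlation between a gene's GC content and its deviation from the mean over libraries was −0.4, −0.63 and −0.02 in the WT libraries and 0.47, 0.45 and 0.23 in the KO libraries.

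HT1080 cells carried RNA of 21 of the 46 genes at a level that could be tested. These 21 had a mean of at least 1 FPKM over the 6 libraries, and the test was limma on log2(FPKM + 1) over all 12000 genes at that level, with p-values adjusted over all of them and a threshold of 0.05. The test was passed by 14 of the 21. Of these, 7 rose in the knockout (NR1D1, NR1H3, THRA, NR2F6, VDR, NR1H2 and PPARA) and 7 fell (NR2F2, NR1D2, PGRMC1, NR2C2, PPARD, RXRA and NR3C1). The background was high: 43.4% of the 12000 genes passed, 21% higher and 22.4% lower. The libraries of the genotypes did not overlap for the same 14 genes, and for 54.7% of all tested genes. The median difference of the 21 was 0.10 on the log2 scale against −0.01 over all tested genes, and the median size of the difference, whatever its sign, was 0.29 against 0.24. Most differences were small: the ratio of mean FPKM reached 1.5-fold in either direction for 4 of the 21 (NR1D1, NR1H3, THRA and NR2F2) and 2-fold for NR1D1 and NR1H3.

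The summed level of the 44 nuclear receptor genes was 235, 215 and 249 FPKM in WT and 254, 253 and 246 in KO. These sums overlapped between the genotypes. The sum was led by NR2F6, ESRRA and NR1H2 in each genotype. The other 25 genes stayed under the filter, 15 of them with fewer than 50 reads over the 6 libraries together, and NR1H4 with none.

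**Figure D1:**
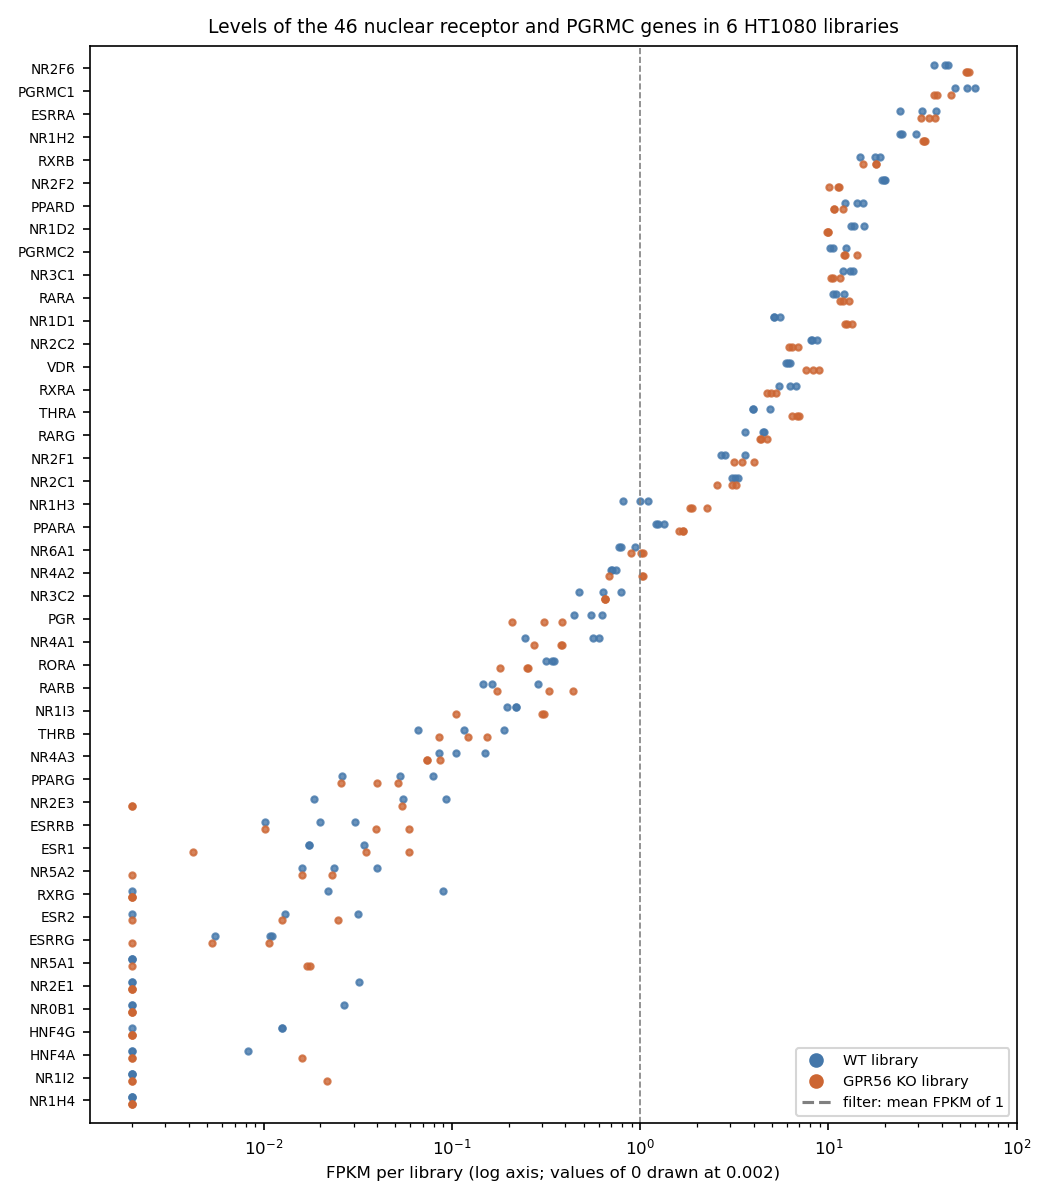
FPKM of the 46 genes in each of 6 libraries on a log axis, ordered by mean level, with WT libraries in blue and GPR56 KO libraries in orange and the filter of 1 FPKM as a dashed line. The levels run from above 50 FPKM for NR2F6 and PGRMC1 down to the 0 reads of NR1H4, and 21 genes lie above the filter by their mean.

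The 14 genes are described by receptor class. A call was also followed through 16 alternative settings, and 7 of the 14 passed in the same direction in every setting that tested them: NR1D1, NR1H3, THRA and VDR as higher, and NR2F2, NR1D2 and NR2C2 as lower. The same held for 50.95% of the 5207 genes called over the whole table. Without a filter on level 9 of the 46 genes passed, against 15.9% of all genes tested, and with replicate numbers as a block 9 passed, against 32.2%. With 1 library left out, the genes that passed numbered 8 (without WT library 1), 12 (WT library 2), 11 (WT library 3), 10 (KO library 1), 8 (KO library 2) and 10 (KO library 3), against 31.6%, 38.6%, 44.9%, 35.3%, 32% and 36.7% of all genes tested. For the other 7, the settings in which the call ended are given beside the gene, except that the replicate block together with the GC and length correction also ended the calls of NR1H2, NR3C1, PGRMC1 and PPARA.

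**Figure D2:**
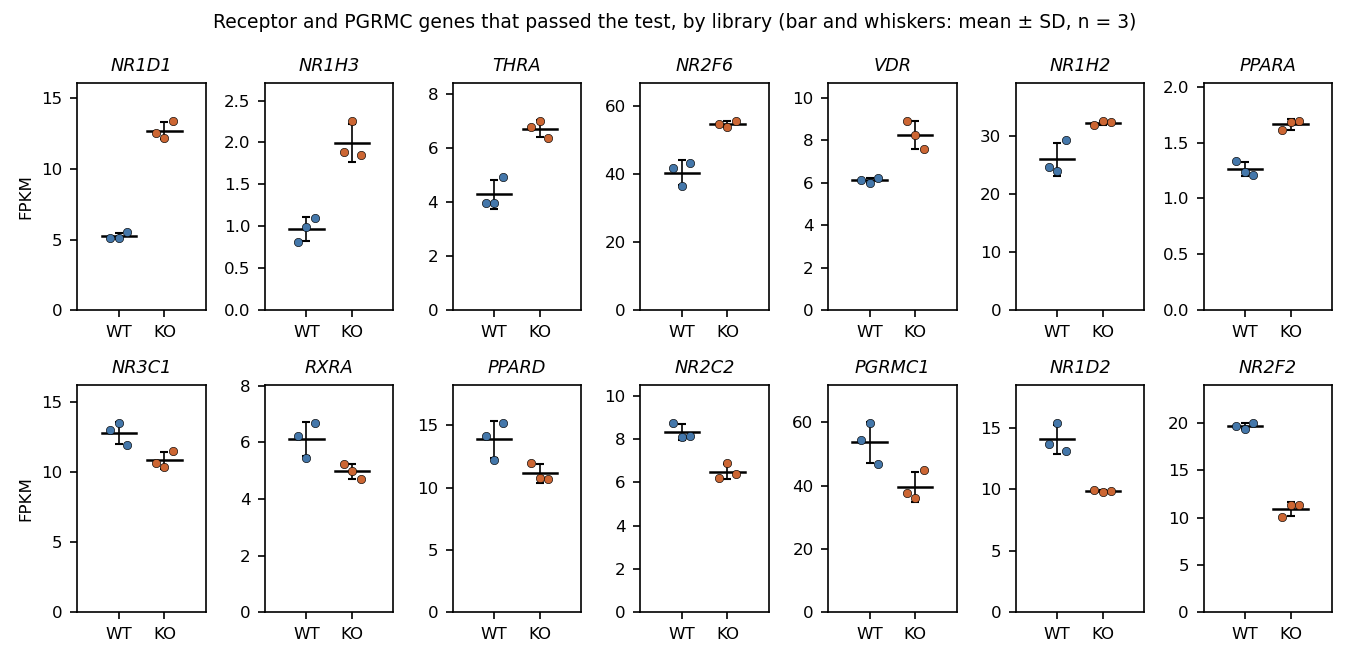
FPKM in each library for the 14 genes that passed the test, with the axis of each panel starting at 0; points are libraries, bars the mean and whiskers the SD of 3 libraries. Panels are ordered by log2 difference. The top row holds the 7 genes that were higher in KO, from NR1D1 to PPARA, and the bottom row the 7 that were lower, from NR3C1 to NR2F2. By the ratio of means, the top row runs from 2.42-fold for NR1D1 to 1.24-fold for NR1H2.

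The widest difference among the 21 tested genes was that of NR1D1, and its closest relative went the other way. NR1D1 (REV-ERBα, ENSG00000126368, chr17:40092787-40100725, minus strand) was read at 5.12, 5.14 and 5.51 FPKM in WT and 12.6, 12.2 and 13.4 in KO. Every KO library was above every WT library, by 2.42-fold in the mean (log2 difference 1.13, SE 0.06, adjusted p = 3.40e-05). NR1D2 (REV-ERBβ, ENSG00000174738, chr3:23945260-23980618, plus strand), which binds the same elements, was read at 13.7, 15.4 and 13.1 FPKM in WT and 9.95, 9.80 and 9.88 in KO, again with no overlap (log2 difference −0.47, SE 0.07, adjusted p = 0.00202). The ratio of NR1D1 to NR1D2 in FPKM, a measure per length, was 0.374, 0.334 and 0.420 in the WT libraries and 1.26, 1.25 and 1.36 in the KO libraries. NR1D2 was thus the more abundant REV-ERB transcript in each WT library, and NR1D1 in each KO library. RORA, the activator that competes with them, lay under the filter at 0.347, 0.338 and 0.314 FPKM in WT and 0.253, 0.181 and 0.251 in KO. Its KO libraries were all below its WT libraries, and with limma-voom on recovered reads, a setting added after the data were seen for genes averaging at least 10 reads, its log2 difference was −0.56 (adjusted p = 0.0263; 45.4% of all genes tested in this setting passed), while without a filter on FPKM the adjusted p was 0.228.

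Clock genes around the REV-ERB pair were more often higher than lower in the knockout. Of 18 listed clock partners 17 were tested, 9 rose, 1 fell and 7 did not pass, with a median log2 difference of 0.29 (0.19 after correction for GC content and length), against −0.01 over all genes. Of the 17, 58.8% passed, against 43.4% of all tested genes (21% higher, 22.4% lower). That background also applies to the gene lists below. BHLHE40, a repressor of the clock activators, was at 22.2 ± 0.377 FPKM in WT and 56.1 ± 3.27 in KO (mean ± SD, n = 3, as for the other partner and target genes; log2 difference 1.30, adjusted p = 2.27e-05). PER1, which feeds back on its own activators, was at 1.62 ± 0.0314 FPKM in WT and 3.85 ± 0.221 in KO (adjusted p = 0.000159). DBP, a D-box activator, was at 0.472 ± 0.0497 FPKM in WT and 2.27 ± 0.288 in KO, a ratio of 4.82. DBP reached the filter only through its KO libraries. The 1 gene that fell was CLOCK, the partner of ARNTL (also called BMAL1) in the E-box activator: it was at 4.50 ± 0.254 FPKM in WT and 2.39 ± 0.205 in KO (log2 difference −0.70, adjusted p = 0.000546). After GC and length correction the difference of CLOCK was −0.38 (adjusted p = 0.00238). NPAS2, which can take the place of CLOCK in that complex, rose and was at 11.6 ± 0.884 FPKM in WT and 14.98 ± 0.578 in KO (adjusted p = 0.00727). NPAS2, ARNTL and the other genes named in the plot of clock genes were chosen for their roles after values were seen. ARNTL, PER2, PER3 and CRY1 did not pass. The time of harvest within the circadian cycle is not given in the labels. With a minimum of 5 FPKM, which left fewer genes to test, 4 clock partners were higher and 0 lower.

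**Figure D3:**
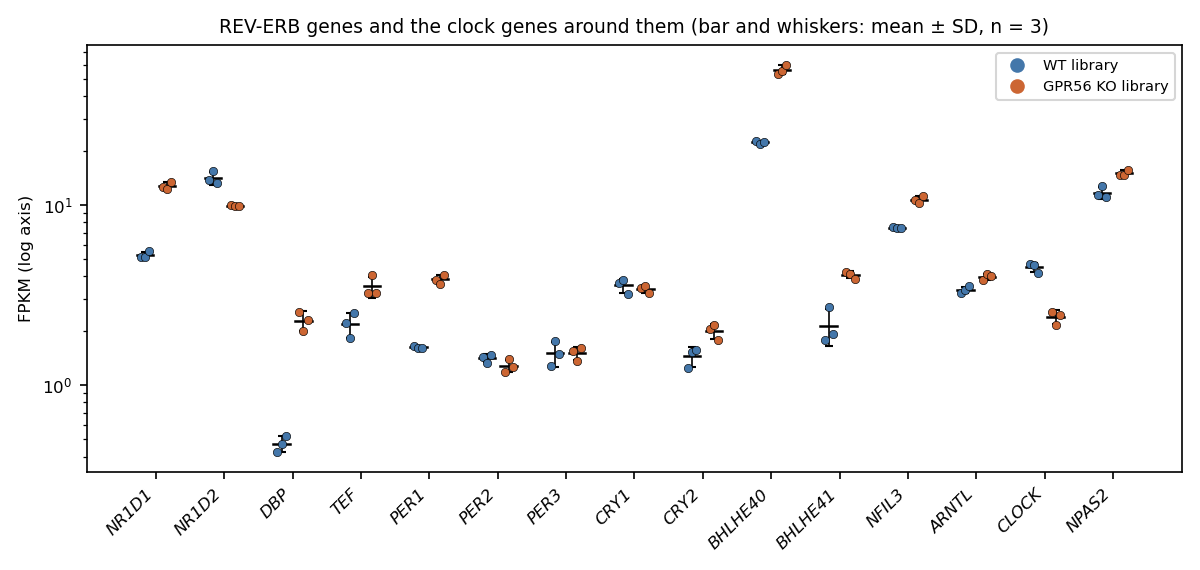
FPKM on a log axis of NR1D1, NR1D2 and 13 clock genes in each library, WT in blue and KO in orange, with the mean and SD of 3 libraries. NR1D1, DBP, PER1 and BHLHE40 lie higher in each KO library than in any WT library, NR1D2 and CLOCK lie lower, and the points of PER2, PER3 and CRY1 overlap between the genotypes.

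NR1D1 shares its locus with THRA, the gene of thyroid hormone receptor α, which is read from the opposite strand and ends inside NR1D1. THRA (ENSG00000126351, chr17:40058290-40093867, plus strand) was read at 3.98, 3.95 and 4.92 FPKM in WT and 6.78, 7.01 and 6.38 in KO, higher in each KO library (log2 difference 0.55, SE 0.09, adjusted p = 0.00243). The exons of the pair overlap by 263 bases, 9.49% of the exonic bases of NR1D1 and 3.78% of those of THRA. No strand setting of the counting is stated, so reads in these bases could be given to either gene. THRB, the gene of the β receptor, had 68 reads in WT and 67 in KO. Of 10 genes of thyroid hormone transport and response 3 were tested, 2 rose, 0 fell and 1 did not pass, with a median log2 difference of 0.47. Of the 3 tested 66.7% passed, against 43.4% of all tested genes. KLF9, a target of thyroid and glucocorticoid receptors, was at 2.68 ± 0.196 FPKM in WT and 5.37 ± 0.322 in KO (adjusted p = 0.000284). The corepressor gene HR, named after its value was seen, lay under the filter with 52 reads in WT and 545 in KO.

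RARA lies on the same chromosome arm. Of 15 tested genes within 250 kb of THRA, NR1D1 or RARA, these genes themselves included, 4 rose, 1 fell and 10 did not pass. The median log2 difference was 0.10, the value of RARA itself. Over all tested genes 21% were higher and 22.4% lower. The 4 were NR1D1, THRA, ORMDL3 and the antisense transcript AC080112.1, and the 1 that fell was TOP2A. MSL1, the next tested gene beyond the NR1D1 start, was at 13.3 FPKM in WT and 13.1 in KO (log2 difference −0.02, adjusted p = 0.775). MED24, which reaches into THRA from the other side, was at 11.2 and 12.5 FPKM and did not pass (adjusted p = 0.106).

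**Figure D4:**
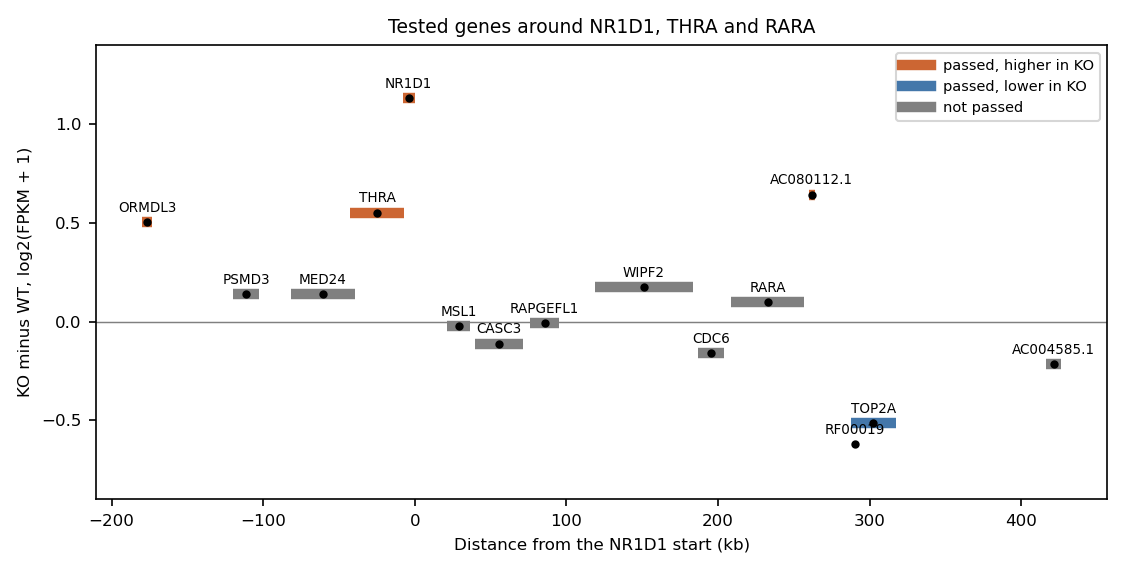
Log2 difference of mean log2(FPKM + 1) between KO and WT for 15 tested genes around NR1D1, THRA and RARA, against the distance in kb from the NR1D1 start; each bar spans its gene. NR1D1 stands at 1.13 and THRA at 0.55, while MSL1 at −0.02 and RARA at 0.10 lie near 0.

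The liver X receptors (LXR) are sterol sensors that act with RXR. Both LXR genes were higher in the knockout. NR1H3 (LXRα, ENSG00000025434, chr11:47248300-47269032, plus strand) was read at 0.808, 0.994 and 1.10 FPKM in WT and 1.89, 2.26 and 1.85 in KO, from 62, 75 and 83 reads in WT and 147, 176 and 139 in KO. Its mean was 2.06-fold higher in KO (log2 difference 0.61, SE 0.10, adjusted p = 0.0031), with no overlap. Its mean was under 1 FPKM in WT, so its KO libraries carried it past the filter. Its exons share 189 bases with ACP2, which did not pass (log2 difference 0.04, adjusted p = 0.781). NR1H2 (LXRβ, ENSG00000131408, chr19:50329653-50382982, plus strand), the more abundant of the pair, was read at 24.7, 24.0 and 29.2 FPKM in WT and 31.9, 32.5 and 32.4 in KO (log2 difference 0.31, SE 0.08, adjusted p = 0.0199). That call ended once GC content and length were corrected for (log2 difference 0.09, adjusted p = 0.141), and without WT library 1 (adjusted p = 0.079), KO library 2 (0.068) or KO library 3 (0.0538).

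Of 12 LXR target genes 6 were tested, 3 rose, 0 fell and 3 did not pass, with a median log2 difference of 0.32 (0.28 after GC and length correction). The share that passed was 50%, against 43.4% of all tested genes. ABCA1, the cholesterol exporter, was at 2.10 ± 0.137 FPKM in WT and 5.91 ± 0.298 in KO (log2 difference 1.16, adjusted p = 5.22e-05). SREBF1, the activator of fatty acid synthesis, was at 13.1 ± 1.35 FPKM in WT and 21.4 ± 1.34 in KO (adjusted p = 0.000974). SCD, the stearoyl-CoA desaturase, was at 165 ± 7.15 FPKM in WT and 212 ± 13.6 in KO (adjusted p = 0.00633). With quantile normalization, or without WT library 3, 5 of the targets were higher. The related bile acid receptor gene NR1H4 had 0 reads in every library, which allows up to 3 reads or 0.0165 FPKM over the WT libraries. The xenobiotic receptor genes NR1I2, with 0 reads in WT and 2 in KO, and NR1I3, with 35 and 40, were near this limit or low. NR1I3 shares 20% of its exonic bases with TOMM40L. None of 12 target genes of these receptors reached the filter. Among them ABCB4, a phospholipid exporter named after its value was seen, had 11 reads in WT and 191 in KO and passed in limma-voom on genes averaging at least 10 reads (log2 difference 4.62, adjusted p = 7.87e-05). ABCB4 reached that average only through its KO libraries.

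VDR, the gene of the vitamin D receptor (ENSG00000111424, chr12:47841537-47943048, minus strand), was read at 6.12, 5.98 and 6.21 FPKM in WT and 8.91, 8.23 and 7.57 in KO. Each KO library was above each WT library, and the KO libraries were spread more widely (log2 difference 0.38, SE 0.07, adjusted p = 0.00486). Of 9 VDR targets 1 was tested: SPP1, which encodes osteopontin, fell and was at 4.84 ± 0.514 FPKM in WT and 2.03 ± 0.312 in KO (adjusted p = 0.000507). CYP24A1, the vitamin D hydroxylase that VDR strongly induces when vitamin D is bound, had 1 read in WT and 3 in KO.

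Of the fatty acid sensors of the PPAR family, PPARA was higher and PPARD lower, and neither call held in every setting. PPARA (ENSG00000186951, chr22:46150521-46243756, plus strand) was read at 1.34, 1.24 and 1.21 FPKM in WT and 1.61, 1.68 and 1.69 in KO (log2 difference 0.24, SE 0.08, adjusted p = 0.047). It did not pass with a pseudocount of 0.1 (adjusted p = 0.0533), without a filter (0.111), with the replicate block (0.123) or when any 1 library was left out (0.0883 to 0.126). PPARD (ENSG00000112033, chr6:35342558-35428191, plus strand), the more abundant, was read at 14.2, 12.2 and 15.2 FPKM in WT and 12.01, 10.8 and 10.7 in KO (log2 difference −0.29, SE 0.09, adjusted p = 0.0364). It did not pass without a filter (adjusted p = 0.0894), with the replicate block (0.0642), or without WT library 1 (0.111), WT library 3 (0.0826), KO library 2 (0.113) or KO library 3 (0.101). The libraries of the genotypes did not overlap for either gene. PPARG, which drives fat cell formation, had 12 reads in WT and 9 in KO.

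Of 20 PPAR targets 9 were tested, 4 rose, 1 fell and 4 did not pass, with a median log2 difference of 0.20 (0.13 after correction). The share that passed was 55.6%, against 43.4% of all tested genes. CPT2, of mitochondrial fatty acid import, which reached the filter only through its KO libraries, was at 0.698 ± 0.0692 FPKM in WT and 1.74 ± 0.155 in KO (adjusted p = 0.00123), and HADHA, of fatty acid oxidation, at 39.8 ± 1.62 FPKM in WT and 52.1 ± 5.30 in KO (adjusted p = 0.01). The carnitine carrier SLC25A20 was at 7.92 ± 0.784 FPKM in WT and 9.94 ± 0.482 in KO (adjusted p = 0.02). ACADM, another enzyme of that pathway, fell to 7.003 FPKM in KO from 9.43 in WT, and did not pass after GC and length correction (adjusted p = 0.347). PDK4, a common PPARα target, had 0 reads. With the replicate block, or without WT library 1 or KO library 2, 2 targets rather than 4 were higher.

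Among the retinoic acid receptors and their RXR partners only RXRA passed. RARA (ENSG00000131759, chr17:40309192-40357643, plus strand) was read at 11.02, 10.6 and 12.2 FPKM in WT and 12.9, 11.9 and 11.5 in KO, and its genotypes overlapped (log2 difference 0.10, SE 0.07, adjusted p = 0.313). RARG (ENSG00000172819, chr12:53210567-53232980, minus strand) was read at 4.47, 3.62 and 4.56 FPKM in WT and 4.70, 4.31 and 4.36 in KO, again with overlap (adjusted p = 0.57). RARB, itself induced by retinoic acid, had 37 reads in WT and 59 in KO. RXRA (ENSG00000186350, chr9:134317098-134440585, plus strand) was read at 6.21, 5.47 and 6.68 FPKM in WT and 5.23, 4.98 and 4.72 in KO (log2 difference −0.25, SE 0.08, adjusted p = 0.0409). The call was close to the threshold: it ended with quantile normalization (adjusted p = 0.0857), without a filter (0.0945), with the replicate block (0.0941) and without WT library 1 (0.119), WT library 3 (0.0914), KO library 1 (0.0617), KO library 2 (0.104) or KO library 3 (0.116), and after GC and length correction the difference was −0.41 (adjusted p = 0.000465). RXRB (ENSG00000204231, chr6:33193588-33200688, minus strand), the most abundant RXR gene, was read at 17.6, 14.8 and 18.9 FPKM in WT and 17.8, 17.8 and 15.2 in KO with overlap (log2 difference −0.01, adjusted p = 0.961). RXRG had 5 reads in WT and 0 in KO.

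Of 21 genes of retinoid supply and response 4 were tested, and all 4 passed: 3 rose and 1 fell. Over all tested genes 43.4% passed. RDH10, which makes retinaldehyde, was at 3.68 ± 0.503 FPKM in WT and 6.35 ± 0.126 in KO (adjusted p = 0.00113), and the retinoic acid carrier CRABP2 at 1.79 ± 0.347 FPKM in WT and 4.67 ± 1.14 in KO (adjusted p = 0.00271). RDH11, a retinal reductase, fell and was at 18.8 ± 0.412 FPKM in WT and 16.5 ± 0.54 in KO (adjusted p = 0.037). Under the filter, and named after their values were seen, CYP26B1, which degrades retinoic acid, had 4 reads in WT and 70 in KO, DHRS3 had 28 and 132, and STRA6 had 24 and 104. ALDH1A3, which makes retinoic acid, had 86 and 5. These 4 low genes passed in limma-voom on genes averaging at least 10 reads, with log2 differences of 4.39, 2.15, 2.04 and −3.80. Each reached that average only through the genotype in which it was higher, and 45.4% of all genes tested in this setting passed.

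Among the 21 tested genes the widest fall was in the NR2 class of orphan receptors. NR2F2 (COUP-TFII, ENSG00000185551, chr15:96325938-96340263, plus strand), known for setting vein identity, was read at 19.6, 19.3 and 20.0 FPKM in WT and 10.0, 11.4 and 11.3 in KO, so that the mean was 1.80-fold lower in KO and the libraries were far apart (log2 difference −0.80, SE 0.06, adjusted p = 0.000178). The correction for GC content and length left it at −0.81. NR2F6 (ENSG00000160113, chr19:17231883-17245940, minus strand), the most abundant nuclear receptor transcript per length, was read at 41.7, 36.4 and 43.2 FPKM in WT and 54.7, 53.8 and 55.6 in KO (log2 difference 0.43, SE 0.08, adjusted p = 0.00377). Its transcripts are 71.1% G and C. After GC and length correction its difference was 0.16 (adjusted p = 0.0209), and with the replicate block added it no longer passed (adjusted p = 0.0811). NR2F1 (COUP-TFI, ENSG00000175745, chr5:93583224-93594615, plus strand) was read at 3.62, 2.83 and 2.68 FPKM in WT and 4.01, 3.15 and 3.46 in KO with overlap (log2 difference 0.17, adjusted p = 0.258). The ratio of NR2F6 to NR2F2 in FPKM was 2.13, 1.89 and 2.16 in the WT libraries and 5.46, 4.73 and 4.93 in the KO libraries.

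The testicular receptors NR2C1 and NR2C2, which repress at direct repeats of the half-site, were both present. NR2C2 (ENSG00000177463, chr3:14947584-15053600, plus strand) was read at 8.74, 8.08 and 8.14 FPKM in WT and 6.20, 6.89 and 6.41 in KO, lower in each KO library (log2 difference −0.31, SE 0.06, adjusted p = 0.00718). Its exons share 1197 bases, 10.1% of the total, with MRPS25 on the opposite strand, which did not pass (log2 difference −0.26, adjusted p = 0.156). They also share 155 bases with FGD5-AS1 on that strand, at a mean of 32.4 FPKM. FGD5-AS1 did not pass either, at a log2 difference of −0.26 (adjusted p = 0.052). NR2C1 (ENSG00000120798, chr12:95020229-95073703, minus strand) was read at 3.19, 3.29 and 3.07 FPKM in WT and 3.23, 3.08 and 2.56 in KO with overlap (adjusted p = 0.464). Of their relatives, NR2E1 had 2 reads in WT and 0 in KO and NR2E3 had 9 and 3. The hepatic receptors HNF4A, with 1 and 2 reads, and HNF4G, with 2 and 0, were at or under the limit of detection.

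NR3C1, the glucocorticoid receptor gene (ENSG00000113580, chr5:143277931-143435512, minus strand), was the only one above the filter of the 5 steroid receptor genes examined. It was read at 13.0, 13.5 and 11.9 FPKM in WT and 10.6, 10.4 and 11.5 in KO, lower in each KO library by a small amount (log2 difference −0.22, SE 0.07, adjusted p = 0.0372). This call did not outlast the GC and length correction, which left a difference of 0.00 (adjusted p = 0.985), nor the tests without a filter (0.0691) and with the replicate block (0.115), nor the loss of WT library 1 (0.117), WT library 2 (0.0909), KO library 1 (0.102) or KO library 2 (0.131). The mineralocorticoid receptor gene NR3C2 had 210 reads in WT and 219 in KO. The estrogen receptor genes ESR1, with 16 and 23 reads, and ESR2, with 7 and 6, were close to undetected.

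PGR, the nuclear progesterone receptor gene, was low: 0.549, 0.628 and 0.445 FPKM in WT and 0.306, 0.208 and 0.383 in KO, from 418 reads in WT (exact 95% Poisson interval 379 to 460) and 234 in KO (205 to 266). These intervals cover counting error only. Each KO library was below each WT library. With limma-voom on genes averaging at least 10 reads, its log2 difference was −0.89 (adjusted p = 0.00462), and with limma on FPKM without a filter the adjusted p was 0.135.

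Of 12 listed targets of the glucocorticoid or progesterone receptor 9 were tested, 4 rose, 3 fell and 2 did not pass. Their median log2 difference was 0.25 (0.14 after correction). Of those tested 77.8% passed, against 43.4% of all tested genes. ERRFI1, an inhibitor of epidermal growth factor receptor signalling, was at 59.3 ± 5.36 FPKM in WT and 161 ± 7.38 in KO (log2 difference 1.43, adjusted p = 3.60e-05). PER1 and KLF9, given above, rose as well. FKBP5, an immunophilin commonly used as a readout of glucocorticoid receptor activity, fell: it was at 5.47 ± 0.108 FPKM in WT and 3.78 ± 0.244 in KO (adjusted p = 0.00191). GLUL, named after its value was seen, had 731 reads in WT and 62 in KO and lay under the filter. Of 11 estrogen receptor targets 4 were tested, 1 rose and 2 fell. Thus 75% of those tested passed, against 43.4% of all tested genes. GREB1, whose mean lay above the filter in KO alone, was at 0.947 ± 0.129 FPKM in WT and 2.22 ± 0.155 in KO (adjusted p = 0.000943), XBP1 at 30.5 ± 1.21 FPKM in WT and 20.9 ± 0.761 in KO (adjusted p = 0.000635) and CCND1 at 171 ± 1.30 FPKM in WT and 133 ± 9.19 in KO (adjusted p = 0.00528).

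The listed genes of receptor chaperones and co-chaperones were lower where they passed. Of 13, all tested, 0 rose, 6 fell and 7 did not pass, with a median log2 difference of −0.18 (−0.25 after correction). The share that passed was 46.2%, near the 43.4% of all tested genes. DNAJA1 was at 133 ± 6.26 FPKM in WT and 82.1 ± 0.691 in KO (adjusted p = 0.000222), HSP90AA1 at 422 ± 41.3 FPKM in WT and 239 ± 8.67 in KO (adjusted p = 0.00049) and HSPA8 at 866 ± 79.7 FPKM in WT and 549 ± 61.4 in KO (adjusted p = 0.00305). HSP90AA1 and HSPA8 have pseudogenes of near-identical sequence, so their counts are less certain. Of 26 coregulators 24 were tested, 2 rose, 11 fell and 11 did not pass, with a median of −0.21 (−0.14 after correction). Of those tested 54.2% passed, against 43.4% of all tested genes. HDAC3, the deacetylase of the corepressor complex, rose: it was at 14.3 ± 0.463 FPKM in WT and 19.7 ± 0.457 in KO (adjusted p = 0.000983). TBL1XR1, of the same complex, fell and was at 18.4 ± 2.005 FPKM in WT and 10.8 ± 1.01 in KO (adjusted p = 0.0013). The coactivator CREBBP, at 6.69 ± 0.51 FPKM in WT and 4.20 ± 0.391 in KO (adjusted p = 0.00178), and its binding partner CITED2, at 17.0 ± 0.53 FPKM in WT and 11.3 ± 1.23 in KO (adjusted p = 0.0019), fell. Without WT library 1, 7 coregulators rather than 11 were lower. The number higher was 1 rather than 2 with the replicate block and without WT library 1 or any 1 of the KO libraries.

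ESRRA (ERRα, ENSG00000173153, chr11:64305572-64316743, plus strand), an orphan receptor that drives mitochondrial genes, was abundant but did not pass. It was read at 31.2, 24.1 and 37.0 FPKM in WT and 34.3, 36.6 and 31.2 in KO, with overlap (log2 difference 0.16, SE 0.15, adjusted p = 0.425). Its WT libraries were widely spread, with an SD of 6.48 FPKM around a mean of 30.8. Its exons share 284 bases, 9.37% of the total, with TRMT112 on the opposite strand, at a mean of 108 FPKM. ESRRB, with 6 reads in WT and 11 in KO, and ESRRG, with 5 and 3, were close to undetected. Of 10 mitochondrial ERR targets, all tested, 4 rose, 3 fell and 3 did not pass, with a median of 0.12. The share that passed was 70%, against 43.4% of all tested genes. MDH2 was at 99.7 ± 4.67 FPKM in WT and 144 ± 9.96 in KO (adjusted p = 0.00143), SDHB at 38.0 ± 2.75 FPKM in WT and 46.1 ± 1.73 in KO (adjusted p = 0.0182), TFAM at 24.9 ± 2.72 FPKM in WT and 18.1 ± 0.37 in KO (adjusted p = 0.0057) and SOD2 at 7.73 ± 0.972 FPKM in WT and 3.42 ± 0.16 in KO (adjusted p = 0.000292). SOD2 has more than 1 identifier, and only the one with the highest mean was used. With the replicate block, or without WT library 1 or KO library 3, 1 target rather than 4 was higher.

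The NR4A receptors are immediate early genes, switched on soon after a stimulus. NR4A1 had 171 reads in WT and 128 in KO, NR4A2 had 143 and 185, and NR4A3 had 36 and 25. All 3 lay under the filter, and in limma-voom on genes averaging at least 10 reads NR4A1 (adjusted p = 0.419) and NR4A2 (adjusted p = 0.269) did not pass. Other immediate early genes reached the filter more often: of 14, 10 were tested, 2 rose, 7 fell and 1 did not pass, with a median log2 difference of −0.53 (−0.64 after correction). Of those tested 90% passed, against 43.4% of all tested genes. EGR1, 1 of those that fell, reached the filter only through its WT libraries. FOSL1, an AP-1 subunit, was at 253 ± 16.8 FPKM in WT and 117 ± 6.90 in KO (adjusted p = 9.07e-05), JUN, its partner, at 77.4 ± 3.98 FPKM in WT and 55.2 ± 1.05 in KO (adjusted p = 0.000985), and KLF4, which rose, at 1.37 ± 0.234 FPKM in WT and 5.55 ± 0.184 in KO (adjusted p = 5.50e-05). Among the remaining receptors, the germ-cell factor NR6A1 had 298 and 355 reads and a voom adjusted p of 0.251. NR5A1, an activator of steroid synthesis, with 0 and 2 reads, its relative NR5A2, with 10 and 5, and its antagonist NR0B1, with 1 and 0, were close to undetected. Of 4 nuclear receptor genes outside the 46, RORB, named after its value was seen, had 67 reads in WT and 6 in KO.

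PGRMC1 was among the most abundant of the 46 genes. It (ENSG00000101856, chrX:119236245-119244466, plus strand) was read at 54.4, 59.8 and 46.9 FPKM in WT and 37.6, 36.3 and 44.9 in KO. The lowest WT library was close above the highest KO library, and the mean was 1.36-fold lower in KO (log2 difference −0.43, SE 0.11, adjusted p = 0.0201). The call ended with the replicate block (adjusted p = 0.0701), without a filter (0.0642), and without WT library 1 (0.0656), WT library 2 (0.0511), KO library 1 (0.0638) or KO library 2 (0.0746). PGRMC2 (ENSG00000164040, chr4:128269237-128288829, minus strand) was read at 10.6, 12.4 and 10.2 FPKM in WT and 12.2, 12.03 and 14.1 in KO, with overlap, and did not pass (log2 difference 0.19, SE 0.09, adjusted p = 0.139). After GC and length correction it passed as higher (log2 difference 0.35, adjusted p = 0.00258), as it did without WT library 2 (adjusted p = 0.0445). The ratio of PGRMC1 to PGRMC2 in FPKM was 5.13, 4.82 and 4.61 in the WT libraries and 3.09, 3.02 and 3.19 in the KO libraries. The ratios of the genotypes did not overlap.

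The membrane progestin receptors of the PAQR family and the heme-binding relatives of PGRMC1 were higher where they passed. Of 8 listed, 7 were tested, 5 rose, 0 fell and 2 did not pass, with a median log2 difference of 0.43 (0.46 after correction). The share that passed was 71.4%, against 43.4% of all tested genes. PAQR8 was at 1.53 ± 0.0304 FPKM in WT and 3.03 ± 0.173 in KO (adjusted p = 0.000526), PAQR5 at 2.06 ± 0.156 FPKM in WT and 3.83 ± 0.854 in KO (adjusted p = 0.00804) and PAQR6 at 0.9 ± 0.258 FPKM in WT and 2.13 ± 0.419 in KO (adjusted p = 0.00584). The mean of PAQR6 lay above the filter in KO but not in WT. CYB5D2, the relative also called neuferricin, was at 3.35 ± 0.657 FPKM in WT and 4.799 ± 0.262 in KO (adjusted p = 0.0206), and NENF, or neudesin, at 31.2 ± 4.36 FPKM in WT and 39.9 ± 2.02 in KO (adjusted p = 0.0269). After GC and length correction CYB5D2 did not pass (log2 difference 0.27, adjusted p = 0.056), and NENF passed at 0.18 (adjusted p = 0.0447). CYB5A, named after its value was seen, passed only with this correction, at 0.46 (adjusted p = 0.016). With the replicate block, without a filter, or without KO library 1 or KO library 2, 3 rather than 5 were higher. The lists of partner and target genes share members, among them PER1, KLF9 and FKBP5.

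A correction for GC content and length shifts each difference, by its construction, according to the GC content and length of the gene. After a correction that removed the trend of each library with GC content and length, the differences of the genes richest in G and C moved down: the shift was −0.27 for NR2F6, −0.24 for ESRRA, −0.21 for NR1H2 and −0.20 for RARA. Those of the genes poorest in G and C moved up: the shift was 0.26 for NR1D2, 0.24 for NR2C1 and 0.22 for NR3C1. NR1D2 still passed as lower at −0.21 (adjusted p = 0.0107) and NR1D1 as higher at 0.94 (adjusted p = 7.84e-05). THRA stood at 0.40, NR1H3 at 0.44 and VDR at 0.27 after the correction. The differences of NR2F2, NR2C2 and PPARA moved by 0.02 or less. Of the 14 calls 12 were kept (43.3% of all tested genes passed in this setting), NR1H2 and NR3C1 were lost, and PGRMC2 was gained. The median of the 21 genes moved from 0.10 to −0.01. Partner and target genes moved as well. TBL1XR1 went from −0.72 to −0.35, FKBP5 from −0.44 to −0.25 and TFAM from −0.43 to −0.14, and all still passed. FOSL1 went the other way, from −1.11 to −1.32. The source of the GC trend was not tested.

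**Figure D5:**
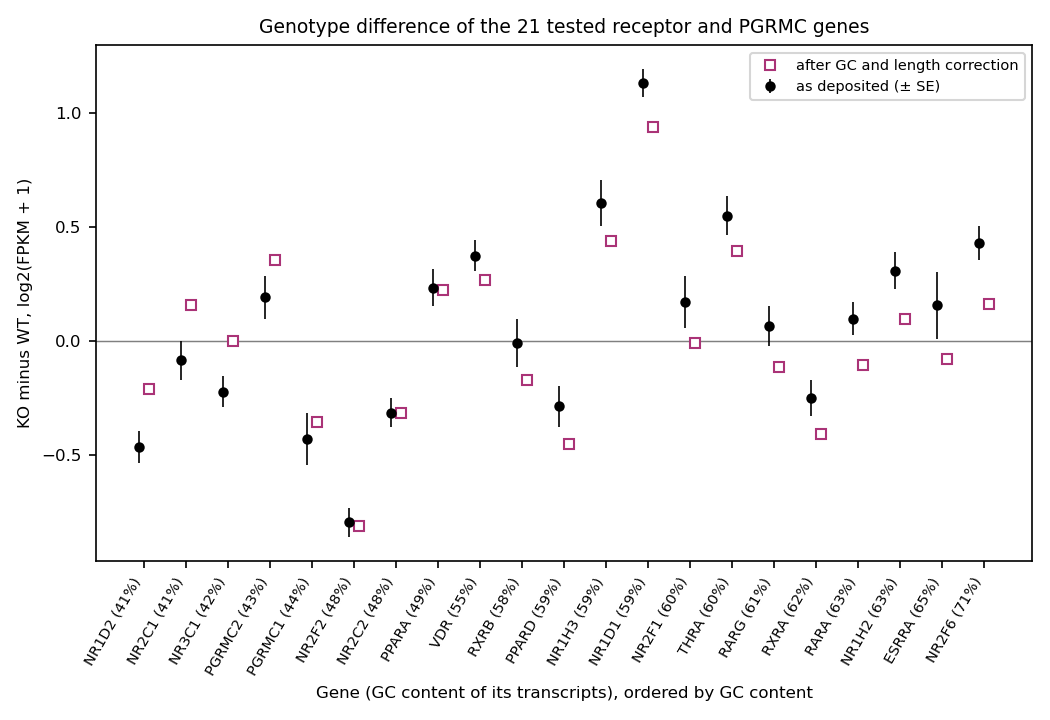
Log2 difference between KO and WT of the 21 tested genes, ordered from the lowest to the highest GC content of their transcripts, as deposited (black, with SE) and after correction for GC content and length (open squares). Squares lie above the black points for the genes at the left (a shift of 0.26 for NR1D2) and below them at the right (−0.27 for NR2F6). The correction itself sets these shifts from GC content and length.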

How the data were processed

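RNA was sequenced in 3 WT and 3 GPR56 KO libraries of HT1080 cells. The authors deposited 1 table of FPKM values, reads scaled by gene length and library size, per the file headers. How reads were aligned and counted, and with which strand setting, is not given in the sources used here. Mouse builds (GRCm38, mm10) stand in the submitters' processing notes, yet identifiers, starts and ends of 58735 of 58735 genes equalled human GENCODE release 29 on GRCh38, and so did their lengths, and positions are given on GRCh38. FPKM times length gave whole reads (within 0.02) for 100% of values, which gave the reads and depths printed. The 46 genes, the gene lists and the tests were chosen with earlier results of these data known.

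Genes with a mean of at least 1 FPKM were tested with limma 3.58.1 in R 4.3.3 (lmFit, eBayes with a trend) on log2(FPKM + 1), two-sided, with genotype as the only term and Benjamini-Hochberg adjustment over 12000 genes at 0.05. Differences are KO minus WT, and the pseudocount makes those of low genes smaller. Alternatives were a pseudocount of 0.1, no filter, a minimum of 5 FPKM, quantile and TMM scaling, limma-voom on recovered reads, a replicate block, a GC and length correction (natural splines with 5 degrees of freedom per library), both together, and leaving out each library. limma-voom on genes with at least 10 reads on average was added after the data were seen. Named partner and target genes are up to 4 per list with the smallest adjusted p, and any other was chosen after its value was seen. A few list genes are not reported here by name. Promoters are 250 bases from RefSeq.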

Additional observations from a re-analysis of the deposited data

How the results depend on the processing

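Of the 46 genes 14 passed, 7 higher and 7 lower. Without a filter 9 passed (6 higher, 3 lower), and with replicate numbers as a block 9 passed as well (6 higher, 3 lower). Leaving out 1 library at a time gave 8 to 12, with 5 to 7 higher and 3 to 5 lower, the fewest (8) without WT library 1 or KO library 2. No direction of a called gene reversed under any alternative. Over all genes 5207 passed (2525 higher, 2682 lower). With a minimum of 5 FPKM, which tests fewer genes, 3203 passed (1639 higher, 1564 lower), and with the replicate block 3866. Leaving out 1 library gave 3792 to 5380. The replicate numbers did not pair the samples: deviations of same-numbered libraries correlated at −0.074, −0.184 and −0.348, and no library correlated best with its own number. With GC and length correction 13 of the 46 genes passed, and limma-voom with at least 10 reads on average called 16, PGR and RORA among them. edgeR on recovered reads was not run. Depth limits 15 of the 46 genes, which had fewer than 50 reads in all. Counting intervals cover counting error only.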
